A study of Zea mays with 38 samples.

Results

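Leaves of maize (Zea mays) seedlings that received no UV-B were compared between 8 h and 1 h. The comparison rests on 8 of the 38 samples of a UV-B time course, namely the 4 control samples labelled 8 h and the 4 control samples labelled 1 h. They were chosen by their titles, which give the treatment, the dye, the slide letter and the time, and no measured value entered the choice. For some samples of the series the source label gave another replicate letter than the title. The slide letters used here, and with them the pairs of UV and control samples, follow the titles. At 8 h and 1 h, both channels of each such pair held the same number of spots. Each control sample was one channel of a 2-colour cDNA microarray whose other channel held a UV-treated sample of the same time, so the slides at 8 h and at 1 h were different ones. At both times the control RNA was labelled with Cy3 on slides a and b and with Cy5 on slides c and d. The labels name the inbred line B73 for the 1 h samples, and they give no line for the 8 h samples. Plants were assigned at random to treatments, in groups of about 20 per exposure time. Plant age and hour of the day are not given in the sources used here. Nothing says that slides a to d hold RNA of separate plants, so p-values measure the spread between these samples, which may be technical, and slide and time cannot be told apart beyond it.

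A leaf in the light fixes carbon, exports sucrose made in the cytosol of its cells, and stores part of the carbon as starch in the chloroplast. Maize is a C4 plant, in which carbon is first fixed in mesophyll cells and refixed in the bundle sheath. Many leaf transcripts, among them those of carbohydrate metabolism, of photosynthesis and of catalases, are known to move over the day under light and the circadian clock. The control samples of every time allow such movement to be seen without UV-B, and this comparison asks which transcripts differed between 8 h and 1 h in those leaves.

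Spots of the control channels numbered 18987 to 20122 at 8 h and 19444 to 19996 at 1 h, with median intensities of 258114 to 359289 at 8 h and 153000 to 338984.5 at 1 h. Across features, the channels correlated at r between 0.8871 and 0.9137 within 8 h, between 0.8984 and 0.92 within 1 h and between 0.8744 and 0.9242 across the 2 times, so the times did not separate by overall correlation. All 8 features of the mesophyll genes pdk1, Cab-m7, Lhcb5-1 and Lhcb5-2 lay above the brightest of 7 foreign spots (16.66 on the log2 scale), as did 2 of 3 features of the bundle sheath genes ssu1 and rca1. Of 11 features for endosperm, embryo and flower genes 5 did, and their median level of 15.71 lay below it. The gene sh2, which the plan also named as low in leaf, was counted with the starch enzymes instead. Both its features lay above the brightest foreign spot, with 8 h means of 21.10 (AI677223) and 18.53 (AW244196). Because a sample is a mixture of leaf cells, fewer cells of a type and less RNA per cell cannot be told apart.

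A fault of the spot grid touched these slides. An array has 48 blocks of spots per slide, and in 8 blocks of the 8 h slides and 19 blocks of the 1 h slides the intensities matched the other slides only after a shift by 1 to 5 rows of spots. As deposited, these blocks correlated with the median of the other slides at r between -0.228 and 0.525, and after the shift at r between 0.892 and 0.983. The blocks lay in the last of the 12 rows of blocks on 8 h slides a and d and on 1 h slides b, c and d, in row 9 on 1 h slide b and in row 11 on 1 h slide d. Values in them belong to neighbouring spots, and they were set to missing, a step chosen after the data had been seen. This left 18373 features tested and 1703 not tested. With the blocks as deposited, 1277 otherwise untested features of the last row stood at a median of -0.84 on the log2 scale between 8 h and 1 h, against 0.12 over all features.

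**Figure D1:**
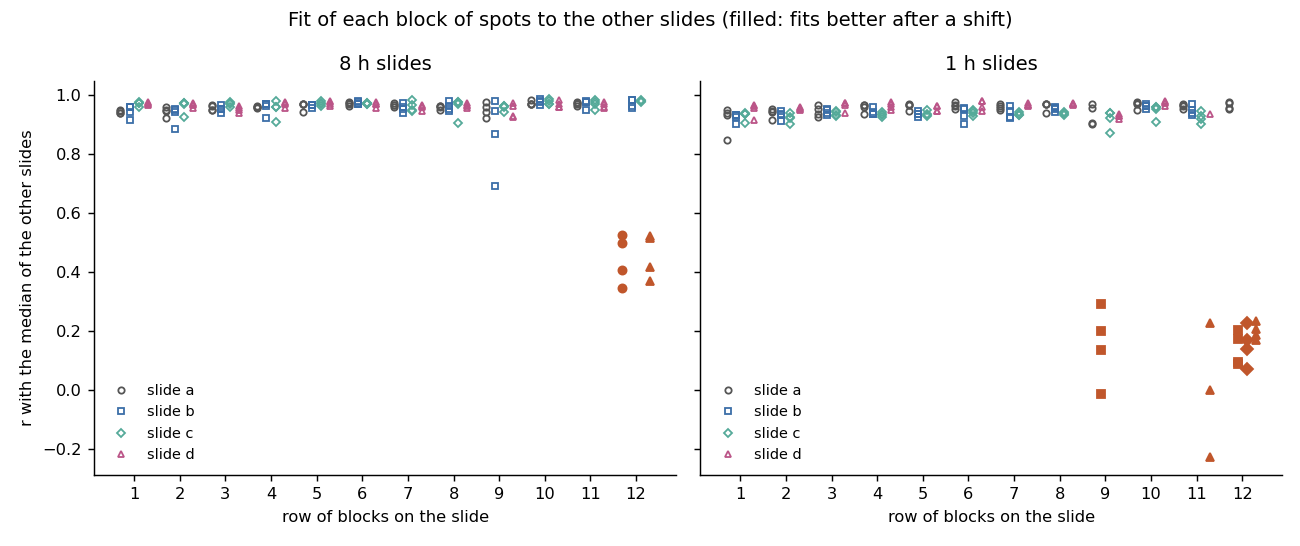
Pearson's r between each block of spots and the median of the other slides (vertical axis, log2 intensity averaged over both channels) by row of blocks (horizontal axis), for the 8 h slides on the left and the 1 h slides on the right; filled points are blocks that matched better after a shift. The filled points lie between -0.228 and 0.525, in rows 9, 11 and 12.

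Few transcripts differed between 8 h and 1 h by more than the spread between slides allowed. Of 18373 features, 21 passed at an adjusted p under 0.05 in limma (0.114%), of which 9 rose (0.0490%) and 12 fell (0.0653%) at 8 h. With the shifted blocks kept as deposited, 7 rose and 4 fell, and all 11 of these were among the 21. Without the 2 h and 4 h channels, also an alternative chosen after the data were seen, 69 passed, with all 21 among them. Many blocks of 2 h slide d and 4 h slides b to d matched the other slides less well. Their r fell to 0.661, against a median of 0.955 over all blocks that needed no shift. Each of the 21 features differed at least 2-fold, with changes of 1.02 to 2.26 on the log2 scale in either direction, and in each the 8 h and 1 h channels did not overlap. Over all features, the 8 h and 1 h channels did not overlap in 10.7% (6.94% higher and 3.79% lower at 8 h), 11.0% had an unadjusted p under 0.05, and 1209 features (6.58%) differed at least 2-fold, of which 21 passed. The median difference of all features was 0.08, and the median SD between the 4 channels was 0.34 at 8 h and 0.31 at 1 h.

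Most calls were lost whichever 1 of the 8 channels was left out, and the adjusted p of the 21 features in limma ran from 0.0316 to 0.0494. Leaving out 1 channel at a time gave 2 calls without 8 h slide a, 7 without 1 h slide a and 0 without any of the other channels, where limma still gave 1496 to 2070 features with an unadjusted p under 0.05. Of the 21 features, 1 and 4 were called again without 8 h slide a and 1 h slide a. With only the 8 channels of these 2 times in the fit limma called 0 features, while 2629 had an unadjusted p under 0.05; in the reported fit the spread per feature rests on the control channels of all 5 times.

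**Figure D2:**
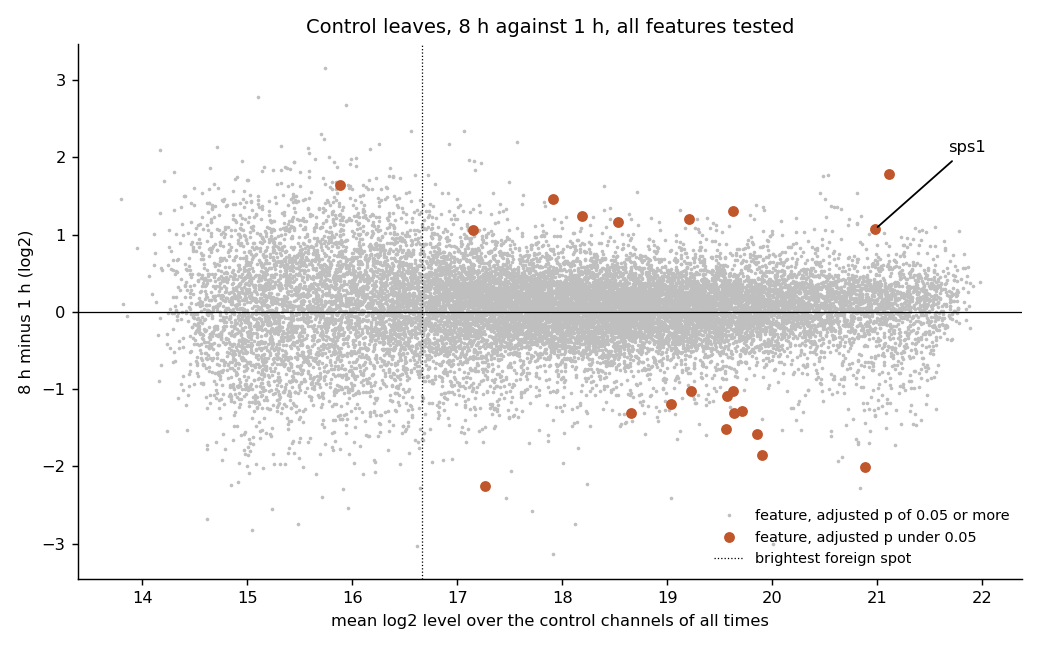
Difference between 8 h and 1 h in control leaves (log2, vertical axis) against the mean log2 level over all control channels (horizontal axis) for the 18373 features tested; large points are the 21 features with an adjusted p under 0.05 and the dotted line is the brightest foreign spot at 16.66. The called features lie between -2.26 and 1.79, and sps1 is marked.

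The one called feature with an informative gene name was sps1, for sucrose phosphate synthase, which makes the phosphate precursor of sucrose from UDP-glucose and fructose 6-phosphate. Its log2 level was 21.27, 21.47, 21.40 and 21.97 in the 8 h control leaves of slides a to d, against 20.60, 20.57, 20.46 and 20.23 in the 1 h control leaves (feature AW355886). All 8 h channels lay above all 1 h channels. The level averaged 21.53 ± 0.31 at 8 h and 20.46 ± 0.17 at 1 h (SD, n = 4 each), and sps1 rose by 1.07 ± 0.17 on the log2 scale (SE), or 2.1-fold, with an adjusted p of 0.0316 in limma. The difference was 0.79 between the Cy3 channels and 1.34 between the Cy5 channels. In the control leaves of the other times, sps1 averaged 20.57 at 2 h, 20.58 at 4 h and 21.65 at 12 h, so that 8 h and 12 h stood about 1 log2 unit over the earlier times. Without 1 of the 8 channels in turn the change stayed between 0.91 and 1.16, and its adjusted p ran from 0.0544 to 0.136.

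The other 20 called features carried no informative gene name in the tables used. The unnamed feature with the largest rise, AW424517, had log2 levels of 21.66, 21.83, 22.06 and 22.04 in 8 h control leaves, against 19.97, 19.88, 20.10 and 20.48 in 1 h control leaves (1.79 ± 0.26, 3.45-fold, adjusted p = 0.0316 in limma). It stood between them at 2 h (20.78) and 4 h (21.12), and at 21.57 at 12 h. The next, AI941736, had 15.47, 16.39, 16.73 and 16.27 at 8 h, against 14.96, 14.20, 14.85 and 14.29 at 1 h (1.64 ± 0.25, adjusted p = 0.0316), and its mean level over all control channels lay below the brightest foreign spot. The largest falls were those of BQ279936, with 14.89, 16.52, 16.54 and 15.90 at 8 h, against 18.03, 18.49, 18.51 and 17.86 at 1 h (-2.26 ± 0.41, adjusted p = 0.0490), and of BE012173, with 20.62, 20.07, 20.15 and 19.07 at 8 h, against 22.08, 22.10, 21.78 and 21.98 at 1 h (-2.0 ± 0.37, adjusted p = 0.0494). The level of BE012173 in control leaves was 21.98 at 1 h, 21.70 at 2 h, 20.99 at 4 h, 19.98 at 8 h and 19.97 at 12 h.

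**Figure D3:**
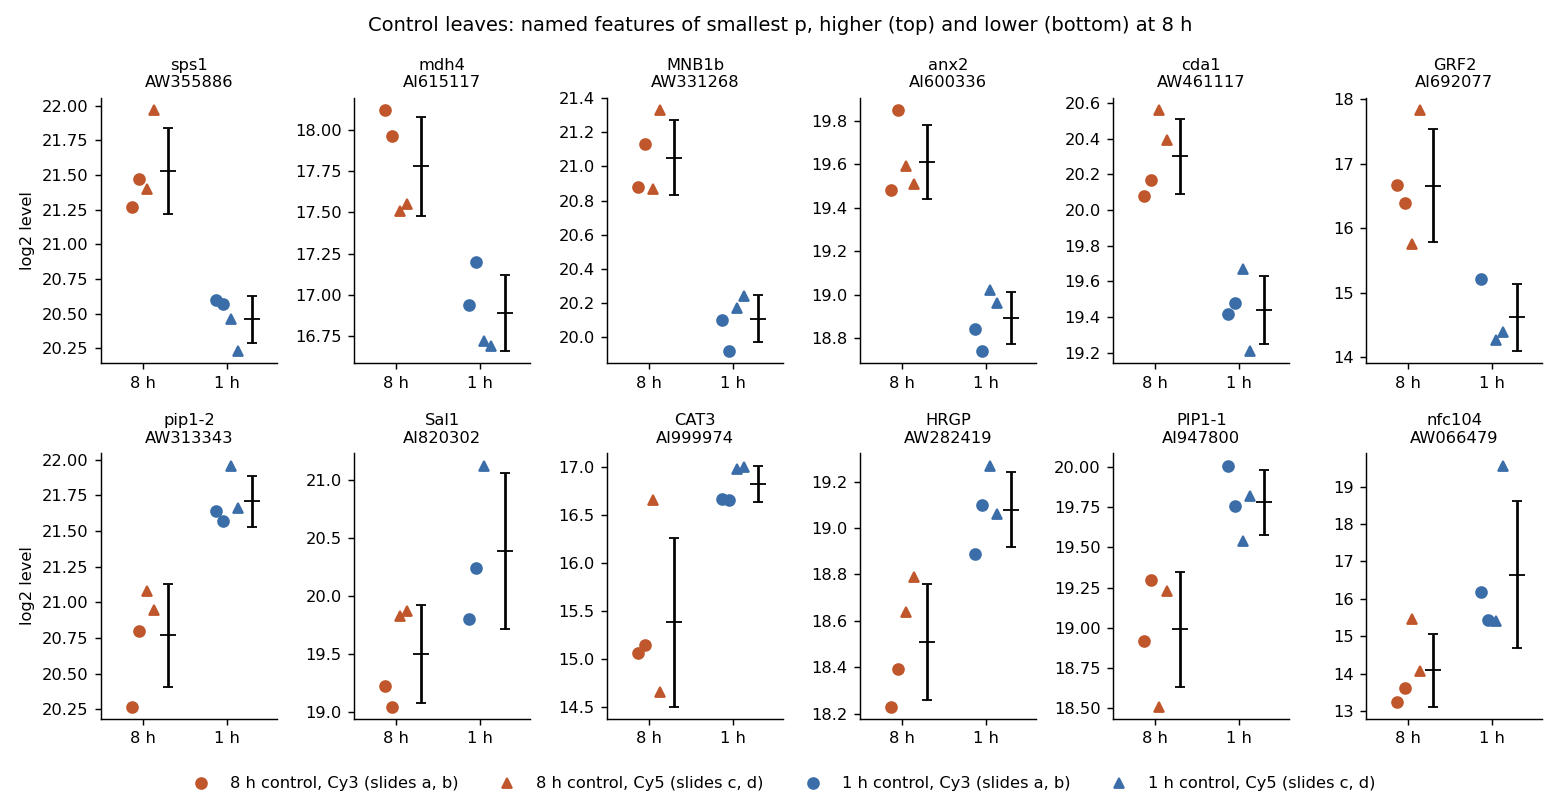
Log2 level (vertical axis) of the 12 named features of smallest p in each control channel at 8 h (left in each panel) and 1 h (right), with circles for Cy3 and triangles for Cy5; the bar beside the points is the mean ± SD. In the top row (sps1 to GRF2) every 8 h channel lies above every 1 h channel, while in the bottom row Sal1, CAT3 and nfc104 overlap; only sps1 passed at an adjusted p under 0.05.

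Sucrose enzymes were looked at as a group. Of 16 features for enzymes and transporters of sucrose and hexose, 1 passed (sps1), 4 had an unadjusted p under 0.05 with a higher level at 8 h and 0 with a lower one, against 7.05% higher and 3.97% lower over all features. The median difference of the group was 0.15, against 0.08 over all features. The gene spp1, for the sucrose phosphatase that completes the pathway of sps1, had 21.04, 21.29 and 21.21 at 8 h on slides a, b and d, against 20.67, 20.40, 20.81 and 20.47 at 1 h (0.59 ± 0.19, adjusted p = 0.267 in limma). Its groups did not overlap, and the difference did not pass.

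Among enzymes that cleave sucrose, the sucrose synthase gene sh1 had 18.60, 19.08 and 18.77 at 8 h on slides a, c and d, against 17.88, 17.64, 18.05 and 18.06 at 1 h in feature AI861486 (0.89 ± 0.23, adjusted p = 0.155). Its other features stood at 0.40 and -1.05, so features of sh1 disagreed. The invertase gene ivr2 had 21.51, 22.60, 22.09 and 21.92 at 8 h, against 21.43, 20.59, 21.39 and 21.41 at 1 h (feature BE123248, 0.83 ± 0.35, adjusted p = 0.394), while its other feature stood at -0.24. The 4 features of the sucrose synthase gene sus1 ran from -0.32 to 0.20, and the sucrose transporter gene sut1 stood at -0.10.

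No feature of starch or glycolysis enzymes passed. For starch, 1 of 21 features had an unadjusted p under 0.05 with a higher level and 2 with a lower one, and the median was -0.14. The gene sh2, for a subunit of ADP-glucose pyrophosphorylase, which makes the sugar nucleotide for starch, had 18.87, 18.75, 18.23 and 18.27 at 8 h, against 19.50, 18.84, 19.01 and 18.57 at 1 h (-0.45 ± 0.18, adjusted p = 0.362 in limma), and the groups overlapped. For glycolysis and fermentation, 2 of 27 features had an unadjusted p under 0.05 with a higher level and 1 with a lower one, with a median of -0.01. The gene phi1, for glucose 6-phosphate isomerase, had 21.13, 21.80, 21.35 and 21.83 at 8 h, against 20.62, 19.57, 19.81 and 19.95 at 1 h in feature BE012178 (1.54 ± 0.39, adjusted p = 0.141). Its 4 other tested features ran from -0.52 to 0.37, so this value belongs to that feature.

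The photosynthetic groups held no called feature in limma. Of 15 features for light harvesting and electron transport, 1 had an unadjusted p under 0.05, the leaf ferredoxin-NADP reductase gene L-FNRII, whose enzyme passes electrons from ferredoxin to NADP. It had 20.48, 20.31 and 20.12 at 8 h on slides a, b and d, against 19.69, 19.84, 19.29 and 19.38 at 1 h (0.69 ± 0.18, adjusted p = 0.168), without overlap. The group's median was -0.01. Of 25 features for the C4 and Calvin cycles 0 had an unadjusted p under 0.05, with a median of 0.04. The smallest p there was that of gpa1, for a chloroplast glyceraldehyde 3-phosphate dehydrogenase subunit, which had 20.59, 20.29, 20.83 and 21.18 at 8 h, against 19.92, 20.17, 19.62 and 20.11 at 1 h (feature AI649788, 0.77 ± 0.38, adjusted p = 0.481), while its other features stood at 0.11 and -0.23. The mesophyll features had a median of -0.12 and the 3 bundle sheath features a median of 0.43, and 0 of either had an unadjusted p under 0.05. Of these, Lhcb5-1 stood at 0.88 ± 0.48 in feature AI612478 (adjusted p = 0.541), while its brighter feature AW927758 stood at -0.20 ± 0.22. The gene rca1, for the activase of Rubisco, stood at 0.43 ± 0.25 in feature AW455677 (adjusted p = 0.577), at 0.15 without 8 h slide d, and at 0.53 in its dim other feature. The plan also named NADP malic enzyme genes for the bundle sheath. The malic enzyme genes me2 and me4 were counted with the C4 cycle instead. Their features stood at -0.21 and 0.31 for me2 and at 0.19 for me4, all under the bundle sheath median. For 6 light signalling features the median was -0.12, and 1 was lower at an unadjusted p under 0.05.

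Enzymes of chlorophyll, carotenoid and plastid isoprenoid synthesis had 4 of 15 features with an unadjusted p under 0.05 and a higher level at 8 h, 0 with a lower one, against 7.05% and 3.97% over all features, and a median of 0.16. The same shares over all features stand behind the counts of every list. None of them passed. The gene prpo2, for protoporphyrinogen oxidase, had 18.22, 18.04, 18.73 and 18.15 at 8 h, against 17.58, 17.81, 16.92 and 17.55 at 1 h (0.82 ± 0.25, adjusted p = 0.221 in limma), without overlap. The phytoene desaturase gene pds1 stood at 1.21 ± 0.43, the isoprenoid gene hds1 at 0.55 ± 0.22 in one of its features and 0.16 in the other, and oy1, for a magnesium chelatase subunit, at 0.92 ± 0.41 (adjusted p = 0.306, 0.354 and 0.418).

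**Figure D4:**
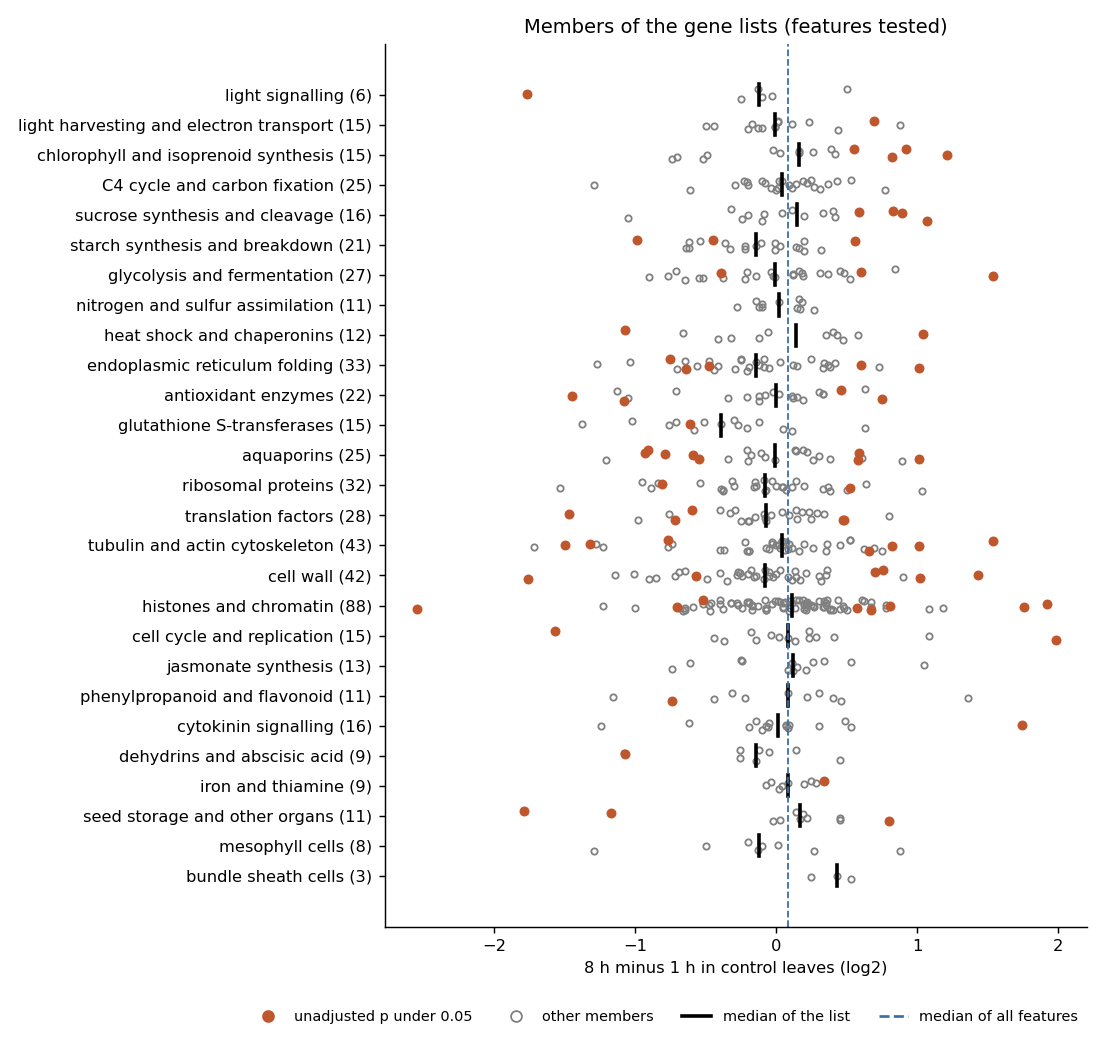
Difference between 8 h and 1 h in control leaves (log2, horizontal axis) for every tested feature of the 27 gene lists (rows, with the number of features); filled points have an unadjusted p under 0.05, the black bar is the list's median and the dashed line the median of all features at 0.08. List medians run from -0.39 for glutathione S-transferases to 0.43 for the 3 bundle sheath features, which are those of ssu1 and rca1.

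Other named features higher at 8 h did not pass and are given as values. The cytosolic malate dehydrogenase gene mdh4, whose enzyme interconverts malate and oxaloacetate, had 18.12, 17.96, 17.51 and 17.55 at 8 h, against 16.94, 17.20, 16.72 and 16.69 at 1 h (feature AI615117, 0.90 ± 0.19, adjusted p = 0.104 in limma). MNB1b, for an HMG-box DNA-binding protein, had 20.88, 21.13, 20.87 and 21.33 at 8 h, against 20.10, 19.92, 20.17 and 20.24 at 1 h (0.94 ± 0.20, adjusted p = 0.104). The annexin gene anx2, whose protein binds membranes with calcium, had 19.48, 19.85, 19.59 and 19.51 at 8 h, against 18.84, 18.74, 19.02 and 18.96 at 1 h (0.72 ± 0.16, adjusted p = 0.120). In all 3 the 8 h channels lay above the 1 h channels, and the other mdh4 features stood at 0.31 and -0.04. The gene cda1 had 20.08, 20.17, 20.56 and 20.39 at 8 h, against 19.42, 19.48, 19.67 and 19.21 at 1 h (0.86 ± 0.20, adjusted p = 0.120). GRF2 had 16.67, 16.39, 15.76 and 17.83 at 8 h, against 15.22, 14.27 and 14.39 at 1 h on slides a, c and d (feature AI692077, 2.01 ± 0.48, adjusted p = 0.128). Its mean level lay below the brightest foreign spot, and its brighter feature stood at 0.37.

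Among named features lower at 8 h, 0 passed in limma. Of the 1063 named features tested, 56 had an unadjusted p under 0.05 with a lower level and 70 with a higher one. Over all features the shares were 3.97% lower and 7.05% higher. Aquaporins, channels for water and small solutes, gave 2 of the 6 smallest p among the lower named features. The plasma membrane aquaporin gene pip1-2 had 20.27, 20.80, 21.08 and 20.95 at 8 h, against 21.64, 21.57, 21.96 and 21.66 at 1 h (-0.93 ± 0.22, adjusted p = 0.120), without overlap. PIP1-1 had 18.92, 19.30, 18.51 and 19.23 at 8 h, against 20.01, 19.76, 19.54 and 19.82 at 1 h in feature AI947800 (-0.79 ± 0.21, adjusted p = 0.172). Other PIP1-1 features stood at -0.91, -0.59 and 0.61, so 3 of 4 were lower. The higher one, AW433358, was the brightest of the 4, and its 8 h channels lay above its 1 h channels (0.61 ± 0.33, adjusted p = 0.527 in limma). Of 25 aquaporin features, 5 had an unadjusted p under 0.05 with a lower level and 3 with a higher one, and the median was -0.01. Those higher were PIP2-4 (1.01), NIP2-3 (0.59) and NIP1-1 (0.58), and the mean level of the PIP2-4 feature lay below the brightest foreign spot.

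Antioxidant enzymes stood on both sides. A catalase feature named CAT3 (AI999974), for an enzyme that breaks down hydrogen peroxide, had 15.06, 15.14, 16.66 and 14.65 at 8 h, against 16.67, 16.66, 16.98 and 17 at 1 h (-1.45 ± 0.39, adjusted p = 0.168 in limma). The groups overlapped only at 8 h slide c, its mean level lay below the brightest foreign spot, and the brighter CAT3 feature stood at 0.33. The catalase gene cat2 had 18.97, 18.86, 18.17 and 18.90 at 8 h, against 18.03, 18.00, 17.84 and 18.05 at 1 h (0.75 ± 0.21, adjusted p = 0.191), without overlap. Superoxide dismutases, which turn superoxide into hydrogen peroxide, stood at 0.46 ± 0.17 for fsd1 and at -1.08 ± 0.43 for sod2 in feature BQ279929 (adjusted p = 0.325 and 0.360). The other features of fsd1 and sod2 stood at 0.33 and -0.08. Of 22 antioxidant features, 2 had an unadjusted p under 0.05 in each direction, and the median was 0.00. Of 15 features for glutathione S-transferases, which join glutathione to foreign and reactive compounds, 12 stood lower at 8 h, with a median of -0.39. One of them had an unadjusted p under 0.05, gst39, with 19.11, 19.09, 18.75 and 18.96 at 8 h, against 19.58, 19.42, 19.55 and 19.81 at 1 h (-0.61 ± 0.22, adjusted p = 0.310).

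In the cell wall list, HRGP, for a hydroxyproline-rich glycoprotein of the wall, had 18.23, 18.39, 18.64 and 18.79 at 8 h, against 18.89, 19.10, 19.27 and 19.06 at 1 h (feature AW282419, -0.57 ± 0.15, adjusted p = 0.170 in limma). Its groups did not overlap, and its other features stood at -0.05 and -0.40. Of 42 wall features, 4 had an unadjusted p under 0.05 with a higher level and 2 with a lower one. In the phenylpropanoid list, myb31, for a repressor of lignin genes in maize, had 19.29, 19.58, 18.93 and 19.44 at 8 h, against 19.92, 20.15, 20.33 and 19.82 at 1 h (-0.74 ± 0.22, adjusted p = 0.214), and it was the 1 feature of 11 with an unadjusted p under 0.05. The profilin gene prf5, whose protein binds actin, had 20.97, 20.54, 20.04 and 19.30 at 8 h, against 21.77, 21.64, 21.60 and 21.85 at 1 h (feature AW330804, -1.50 ± 0.45, adjusted p = 0.218). Its other features stood at -0.19 and -1.28, and of 43 cytoskeleton features 4 were higher and 3 lower at an unadjusted p under 0.05.

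No feature of the chromatin, translation and folding lists passed. Of 88 histone and chromatin features, 5 were higher and 3 lower at an unadjusted p under 0.05, with a median of 0.11. The chromatin gene nfc104 had 13.25, 13.62, 15.47 and 14.07 at 8 h, against 16.19, 15.43, 15.42 and 19.56 at 1 h in feature AW066479 (-2.55 ± 0.69, adjusted p = 0.172 in limma), and 1.76 in its other feature. Both features were dim, and 1 h slide d alone stood at 19.56, without which the difference in AW066479 was -1.64. The UV channel of that slide stood at 19.07 in AW066479, against 14.40 to 16.66 on the other 1 h slides. Ribosomal proteins had a median of -0.08 over 32 features, translation factors one of -0.07 over 28 and folding factors of the endoplasmic reticulum one of -0.14 over 33. More of their features stood lower than higher at 8 h (19 against 13, 16 against 12 and 21 against 12). Over all features 7862 stood lower and 10511 higher. Without overlap, 4, 3 and 4 were lower and 0, 2 and 1 higher, against 3.79% lower and 6.94% higher over all features. The smallest p in these groups were those of rpl17 (-0.81 ± 0.37, adjusted p = 0.433), eif3 (feature BQ294213, -0.72 ± 0.23, adjusted p = 0.261) and the disulfide isomerase gene pdi4 (feature AI861408, 0.60 ± 0.18, adjusted p = 0.220). Without 8 h slide a the eif3 feature stood at -0.45. The other features of eif3 ran from -0.76 to 0.09, and those of rpl17 and pdi4 stood at 0.14 and -0.09. Sal1, known from maize aleurone, had 19.23, 19.05, 19.83 and 19.87 at 8 h, against 19.80, 20.24 and 21.12 at 1 h on slides a to c (-0.98 ± 0.24, adjusted p = 0.137). On 1 h slide d it lay in a shifted block, and with that block as deposited the difference stood at 0.25.

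The remaining lists also held no called feature. Their features of smallest p were hsp18f, a small heat shock protein gene (feature AI691707, 1.04 ± 0.33, adjusted p = 0.261 in limma), the cytokinin response regulator gene RR6 (feature AI795691, 1.74 ± 0.47, adjusted p = 0.168) and the seed gene meg2 (0.80 ± 0.21, adjusted p = 0.172), all 3 with mean levels below the brightest foreign spot. The other features of hsp18f and RR6 stood at -0.06 and 0.53. The replication clamp gene pcna2 stood at -1.57 ± 0.65 (feature AI734348, adjusted p = 0.380) and at -0.52 without 8 h slide c, the dehydrin gene dhn2 at -1.07 ± 0.48 (feature BQ293703, adjusted p = 0.431) and at -0.69 without 1 h slide a, HD6 at -1.77 ± 0.79 (feature AI600587, adjusted p = 0.423) and at -0.55 without 1 h slide b, the ferritin gene fer2 at 0.34 ± 0.15 (feature AW258016, adjusted p = 0.406), the allene oxide synthase gene aos1 of jasmonate synthesis at 0.34 ± 0.17 (adjusted p = 0.471) and the sulfite reductase gene SiR at -0.28 ± 0.20 (adjusted p = 0.659). Without 1 of the channels SiR ran from -0.43 (1 h slide b left out) to -0.14 (1 h slide d left out), with -0.17 without 8 h slide a. Their genes' other features stood at -0.44 for pcna2, at -1.08, -0.26 and 0.14 for dhn2, at -0.13 and 0.50 for HD6 and at -0.07 for fer2, and the quoted features of HD6 and dhn2 were dim. On 8 h slide c, feature AI734348 of pcna2 stood at 15.32 in control leaves and at 15.61 in UV leaves. On 8 h slides a and d it stood at 18.05 and 18.68 in control leaves and at 18.17 and 18.56 in UV leaves. The 11 features of nitrogen and sulfur assimilation spanned the narrow range of -0.28 to 0.27.

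A second comparison asked whether the 8 h and 1 h levels differed in UV leaves by another amount than in control leaves, from the log ratios of UV over control, fitted over the slides of all 5 times. Of 18373 features, 91 passed in limma (0.495%), with 50 more positive in UV leaves (0.272%) and 41 more negative (0.223%). For sps1 the 8 h level exceeded the 1 h level by 0.93 in UV leaves and by 1.07 in control leaves, a gap of -0.14 ± 0.21 (adjusted p = 0.814). Its UV channels had 21.12, 21.23, 20.95 and 21.50 at 8 h, against 20.74, 20.11, 19.88 and 20.35 at 1 h. Each UV channel shared its slide and spots with a control channel, so the UV and control differences are not independent. The correlation between channels within a spot was estimated at 0.747 over all samples. Of the 21 features called in control leaves, 1 passed for the gap.

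All 6 named features that passed for the gap were more positive in UV leaves. With only the 8 slides of 8 h and 1 h in the fit, none of the 6 passed, at gaps of 0.52 to 3.51 and adjusted p from 0.0528 to 0.105 in limma, and the 13 features called there were all more negative in UV leaves. The chitinase gene chn1, for an enzyme that cuts fungal walls, had 21.85, 21.91, 20.83 and 19.92 in UV leaves at 8 h, against 19.20, 18.60, 18.82 and 18.25 at 1 h. In control leaves it had 17.69, 17.69, 19.51 and 19.03 at 8 h, against 19.54, 19.19, 19.39 and 20.21 at 1 h, so that the gap was 3.51 ± 0.60 (adjusted p = 0.0366 in limma). CAT3 (AI999974) had 17.44, 17.61, 17.49 and 16.48 in UV leaves at 8 h, against 16.78, 17.15, 16.68 and 16.89 at 1 h, beside the lower control levels at 8 h given above (gap 1.83 ± 0.37, adjusted p = 0.0432). RGP (AI739985), for a reversibly glycosylated polypeptide linked to wall synthesis, had 18.99, 19.62, 19.78 and 18.39 in control leaves at 8 h, against 20.39, 19.26 and 20.54 at 1 h on slides a, c and d, and averaged 21.10 at 8 h, against 19.67 at 1 h, in UV leaves (gap 2.28 ± 0.42, adjusted p = 0.0366). A dim second RGP feature stood at 1.43 in control leaves, the opposite direction. For CAT3, chn1 and RGP the control means were lower at 8 h, though none of these differences passed in control leaves (-1.45, -1.10 and -0.90).

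The gene hir3, of the hypersensitive-induced reaction family, was more positive in UV leaves in both of its features (gap 1.13 ± 0.18 in BQ134598 and 0.71 ± 0.14 in BQ294446, adjusted p = 0.0366 and 0.0407), beside control differences of 0.32 and -0.04. PP2C, for a protein phosphatase, had a gap of 0.52 ± 0.10 in feature BQ486413 (adjusted p = 0.0366 in limma). Its control differences were 0.33 in that feature and -0.59 in its other feature. Of 15 alternatives, CAT3 passed in 3, chn1 and RGP in 6 each, hir3 in 8 and 4 for its features, and PP2C in 5. Leaving out 1 of the 8 slides gave 0 calls without 8 h slide a or b (2120 and 2364 at an unadjusted p under 0.05), 40 without 8 h slide d, 10, 35, 6 and 35 without 1 h slides a to d, and 92 without 8 h slide c.

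**Figure D5:**
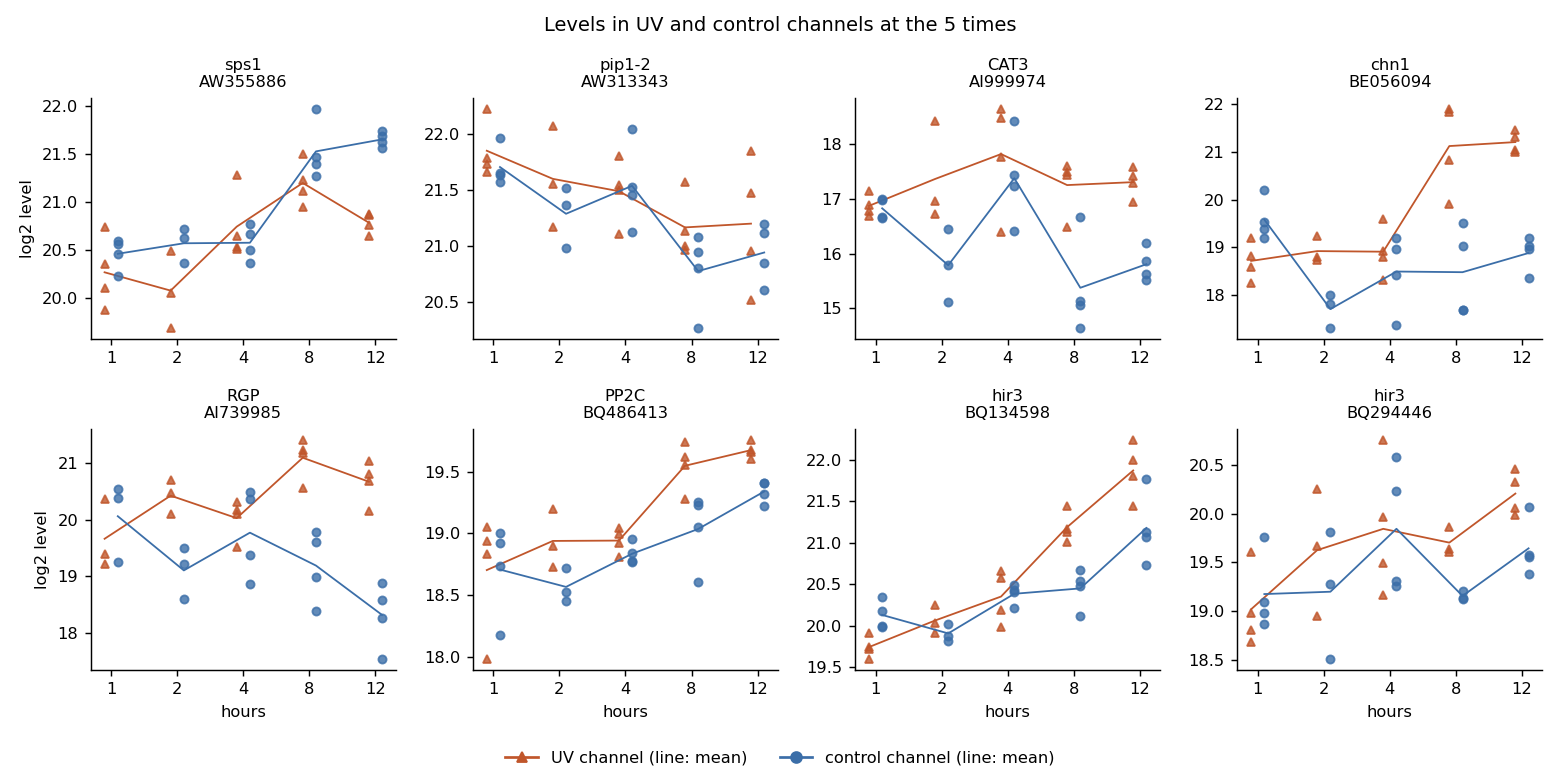
Log2 level (vertical axis) of 8 features in each UV channel (triangles) and control channel (circles) at 1, 2, 4, 8 and 12 h (horizontal axis, evenly spaced), with lines through the means. The sps1 control mean stands at 21.53 at 8 h and 20.46 at 1 h, and the chn1 mean at 8 h is 21.13 in UV leaves and 18.48 in control leaves.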

How the data were processed

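Two-colour cDNA arrays of maize leaf RNA were used. The authors deposited a linear intensity for each spot of each channel. Per the labels, TIGR Spotfinder served for gridding or image analysis, and background subtraction is not stated there. The authors also deposited a processed score per feature whose scale and centring are not stated (column medians 12.24 to 12.35), used only as an alternative.

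Blocks of spots that matched the other slides only after a shift (up to 6 rows and 2 columns tried) were set to missing in both channels. This step was added after the data were seen and after the counts without it (7 higher, 4 lower) were known; the fit as first designed keeps these spots, and its counts are given beside the others. Intensities were corrected with normexp (offset 50), normalized by loess (span 0.3) and Aquantile, and taken apart by channel in limma 3.58.1 (R 4.3.3). A feature needed 3 of 4 control channels at each time. The 19 control channels were fitted with time and dye, and log2(UV/control) of the 19 slides likewise, with eBayes (13 residual and 2.5 prior degrees of freedom), on the log2 scale. P-values were two-sided and adjusted by Benjamini-Hochberg over all features. The fits were also run on simulated data with independent noise in each channel or slide ratio. Those data held no shared slide effects, so they cannot show how such effects bear on the calls.

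Of 1334 probes with a platform gene entry, 1331 had 1 symbol and 3 several, and 1283 were found in RefSeq (assembly Zm-B73-REFERENCE-NAM-5.0), which gave 1168 features of 685 genes an informative name; 1063 were tested. Named are, per direction, the 6 of smallest p, since fewer than 6 passed, the feature of smallest p per list or its called member, the 2 largest unnamed rises and falls, and the 6 named features of smallest p that passed for the UV difference. Members and lists were chosen with earlier results of these data known. Other features named with a list were chosen after their values were seen. The number of arrays limits the precision. The reported fits did not use the replicate letters as pairs.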

Additional observations from a re-analysis of the deposited data

Results flagged for a closer look

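Of 66 groups of 4 channels among the named features, 2 had a channel apart from the other 3, where chance gives about 1 in 20. For HD6 (AI600587), the control channel of 1 h slide b stood at 20.55, against 15.27 to 15.97 on the other 1 h slides. The UV channel of that slide stood at 20.35, against 15.34 to 16.08 on the others, so both channels were apart. In control leaves the difference between 8 h and 1 h was -1.77 with that slide and -0.55 without it. It was -0.12 between the Cy5 control channels alone. For meg2 (AI737161), 8 h slide c stood at 15.60, against 15.90 to 15.95 on the other 8 h slides. Both features were dim, with mean levels under that of the brightest foreign spot.

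The difference between 8 h and 1 h was not the same in UV and control leaves for 6 named features, by the test of that gap in limma. The gap was 1.83 for CAT3 (AI999974), 1.13 and 0.71 for the hir3 features BQ134598 and BQ294446, 3.51 for chn1, 2.28 for RGP (AI739985) and 0.52 for PP2C (BQ486413).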

How the results depend on the processing

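The count of 21 features between 8 h and 1 h in control leaves became 34 without background correction, 5 with median scaling between slides (4 higher, 1 lower), 110 with the authors' processed values (38 higher, 72 lower), 97 with the separate-channel fit of all samples (54 higher, 43 lower) and 39 among features brighter than the brightest foreign spot. It became 0 with only the 8 channels, 0 with only Cy3 (1047 at an unadjusted p under 0.05) and 2 with only Cy5. Alternatives chosen after seeing the data gave 11 with the shifted blocks as gridded (7 higher, 4 lower) and 69 without the 2 h and 4 h channels (44 higher, 25 lower). Leaving out 1 channel gave 0 to 7. The count stayed within 1.5 times under the other 4 alternatives. Of the 21, between 0 and 21 were called again under each alternative, and Sal1 turned to 0.25 with the blocks as gridded, where its 1 h slide d spot lay in a shifted block.

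The count of 91 for the gap between UV and control leaves became 189 without background correction (89 higher, 100 lower) and 1051 with median centring (331 higher, 720 lower). It became 193 with the authors' values (119 higher, 74 lower) and 13 with only the 8 slides (0 higher, 13 lower). Without a dye term it became 0 (2195 at an unadjusted p under 0.05). The balance of higher and lower thus moved with the processing and with the slides in the fit. Leaving out 1 slide gave 0 to 92.

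With the replicate letter as a block, limma called 0 features in either comparison, with 1976 and 2755 at an unadjusted p under 0.05. Deviations of same-letter samples correlated at -0.0586 to 0.205 and those of other letters at -0.168 to 0.115. These ranges overlap and the letters also go with the dye, so whether the letters pair the samples could not be determined. Except as stated, the causes were not tested. The median of all features stood at 0.08, at 0.12 with the blocks as gridded and at -0.00299 with the authors' values.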
